A study of Sus scrofa with 27 samples.

Results

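The genes described here encode the proteins that turn cholesterol into sex steroids: the cholesterol carrier STAR, the cytochrome P450 enzymes CYP11A1 and CYP17A1, their electron donors and helper (FDX1, FDXR, POR and CYB5A), and 3 17-beta-hydroxysteroid dehydrogenases (HSD17B1, HSD17B4 and HSD17B12). They were chosen by name, as the rows whose pig Ensembl identifier is paired with 1 of these 10 symbols. All 10 were found among the 35670 identifiers of each count file, and all 10 were among the 11384 named genes that averaged at least 5 counts and were tested. The cells were mural granulosa cells (GCs), the layer that lines the follicle wall, cut by laser from the largest follicle judged healthy in each right ovary, 1 follicle and 1 library per sow. The sows were wild-type Large White times Norwegian Landrace pigs in their first lactation. There were 13 full-fed (FF) sows, on 6.5 kg of feed per day, and 14 restricted (RES) sows, on 3.25 kg per day, during the final 2 lactation weeks. Both groups were fully fed after weaning, per the labels, but the study's methods give 3 kg per day for all sows from weaning on. The ovaries were collected on day 2 post-weaning. The sows were drawn from a larger trial, RES sows for high and FF sows for low loss of body weight. Follicles were not matched for size, and the study reports smaller ones in RES sows. Diet, weight loss and follicle size therefore cannot be told apart here.

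Steroid synthesis starts when STAR lets cholesterol enter the mitochondrion. There CYP11A1 cuts the side chain to give pregnenolone, with electrons passed on from FDXR through FDX1. CYP17A1 then makes androgens at the endoplasmic reticulum, with electrons from POR, and CYB5A favours its lyase step. HSD17B1 reduces estrone to estradiol and is typical of GCs. HSD17B4 oxidises estradiol and also works in peroxisomal fatty acid breakdown, and HSD17B12 mainly works in fatty acid elongation. In pig follicles CYP17A1 and CYP11A1 are textbook genes of the theca, the layer outside the basement membrane, and the study counts both among its theca markers and CYB5A among its GC markers. In bulk samples such as these, fewer cells of a type and less RNA per cell cannot be told apart.

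Total counts ran from 12299220 to 16021200 in FF libraries (median 13490513) and from 12942198 to 18120922 in RES libraries (median 15232600). The levels below are normalized counts, that is, counts divided by a size factor for each library, and fold changes are on the log2 scale, RES relative to FF. The GC label was checked with 9 marker genes found by symbol, whose summed normalized count ran from 100462 to 168089 in FF and from 83814 to 204577 in RES. VCAN, with a mean of 50758 in FF, and SERPINE2, with 54360, made up most of this sum, whereas AMH (mean 5.68) and GATM (20.6) were near the floor. Libraries fell into an upper and a lower read quality group, divided where 98% of bases reached a score of 20 (7 FF and 7 RES upper, 6 FF and 7 RES lower). Values within these groups are given beside the diet comparison because quality could stand for a sequencing batch, which is not stated in the sources used here.

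Of the 10 genes, CYP11A1 fell and HSD17B1 rose in RES GCs, and the other 8 did not pass an adjusted p of 0.05 (edgeR quasi-likelihood test, adjusted over all 11384 genes). Of all genes tested, 14.1% passed this threshold, 8.29% as higher and 5.85% as lower in RES, so 2 of 10 is close to the background. The 3 genes of the first steps (STAR, CYP11A1 and CYP17A1) had the most negative fold changes, from -1.28 to -0.90. Their electron donors lay between -0.22 and 0.10, and CYB5A lay at 0.15. The FF and RES ranges overlapped for all 10 genes. Over all genes tested the groups did not overlap for 0.00878%.

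**Figure D1:**
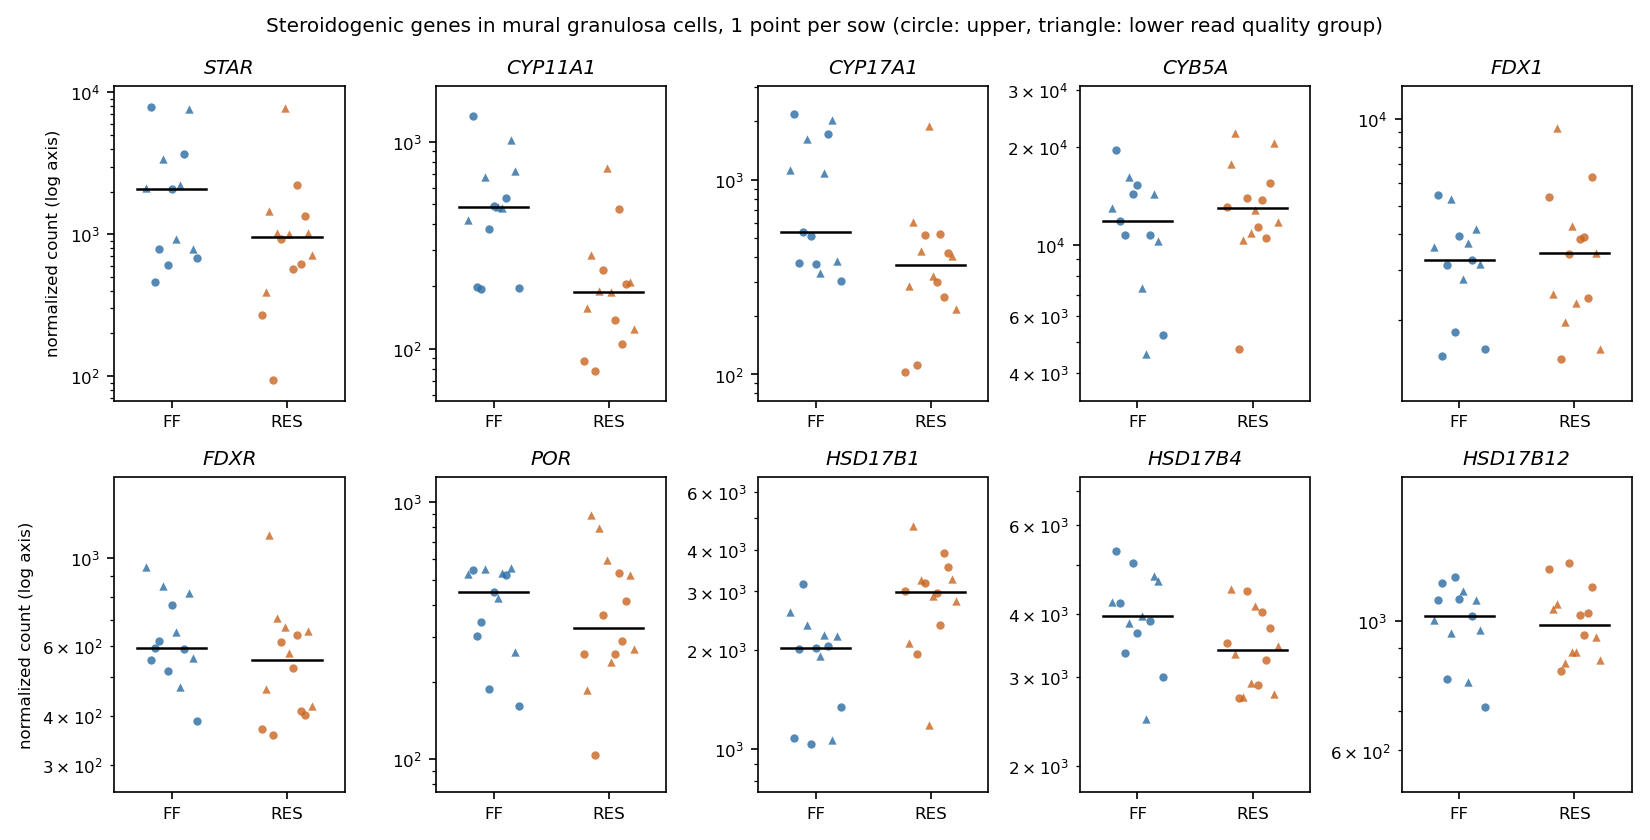
Normalized counts of the 10 genes on log axes, 1 point per sow, with FF sows in blue, RES sows in orange and a line at each group's median. Circles mark the upper and triangles the lower read quality group. Only 1 RES sow lies above the FF median of 485.2 for CYP11A1 and 2 RES sows lie below the FF median of 2026 for HSD17B1, while FF and RES ranges overlap in every panel.

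STAR (ENSSSCG00000034942, Sscrofa11.1 chromosome 15, 48377597 to 48385398, plus strand) is the carrier that sets the supply of cholesterol. Its normalized count ran from 460.7 in FF sow 3 over a median of 2087 to 7914 in FF sow 2, and from 93.7 in RES sow 4 over a median of 961.6 to 7812 in RES sow 7. Thus 12 of 14 RES sows lay below the FF median, but RES sow 7 was at the level of the highest FF sow. FF sows averaged 2553 ± 2533 (SD, n = 13) and RES sows 1390 ± 1926 (SD, n = 14). The fold change was -0.90 (SE 0.52, edgeR adjusted p = 0.244), so the difference did not exceed the spread between sows. Over the 27 fits without 1 sow it ran from -1.56 (without RES sow 7, adjusted p = 0.0136, the only such fit that called STAR, and one that called 20.6% of all genes) to -0.62 (without FF sow 2, adjusted p = 0.444). Upper quality libraries alone gave -1.46 (adjusted p = 0.151) and lower quality libraries -0.58 (adjusted p = 0.773). STAR was among the most variable transcripts of these cells: its coefficient of variation (CV, SD over mean) was 99.2% in FF and 138.6% in RES, and 98.7% and 99.7% of the tested genes had a lower CV in the same group.

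CYP11A1 (ENSSSCG00000025273, chromosome 7, 59172829 to 59188479, plus strand), the side-chain cleavage enzyme, ran from 193.5 in FF sow 4 over a median of 485.2 to 1331 in FF sow 2. In RES it ran from 78.3 in sow 4 over a median of 188.9 to 751.8 in sow 7. Of the 14 RES sows, 13 lay below the FF median. Means of 547.9 ± 330.3 (SD, n = 13) and 230.7 ± 180.1 (SD, n = 14) gave a fold change of -1.28 (SE 0.33, edgeR adjusted p = 0.00920). The call held in all 27 fits that left out 1 sow, with fold changes from -1.57 to -1.10. The upper quality group alone gave -1.36 (adjusted p = 0.0604) and the lower alone -1.25 (adjusted p = 0.169), neither past the threshold.

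CYP17A1 (ENSSSCG00000010591, chromosome 14, 113805616 to 113820445, minus strand), which makes androgens, ran from 301.8 in FF sow 14 over a median of 536.3 to 2160 in FF sow 2. In RES it ran from 102.4 in sow 1 over a median of 362.8 to 1895 in sow 7. The FF sows lay on both sides of a gap, with 7 sows at 301.8 to 536.3 and 6 sows at 1085 to 2160. Of the RES sows only sow 7 lay above this gap. The means were 965.5 ± 700.5 (SD, n = 13) and 456.0 ± 440.5 (SD, n = 14). The fold change was -1.11 (SE 0.39) with an edgeR adjusted p of 0.0523, just outside the threshold, and 7 of the 27 fits without 1 sow called it. These fits ran from -1.53 (without RES sow 7, adjusted p = 0.00195) to -0.96 (without FF sow 2, adjusted p = 0.104). Upper quality libraries alone gave -1.46 (adjusted p = 0.0535) and lower quality libraries -0.92 (adjusted p = 0.479). DESeq2's Wald test on all 27 libraries gave an adjusted p of 0.0389. Its exons share 139 bp with BORCS7 on the opposite strand, and the counting set no strand option, so reads from these bases cannot be assigned to either gene.

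STAR, CYP11A1 and CYP17A1 were correlated from sow to sow by Pearson's r, in FF with the limits given below. Their start regions are shown for that reason. Each sequence holds 250 bases before and 50 bases from the RefSeq start on Sscrofa11.1, 5' to 3' on the gene's strand. Capitals mark AGATAA, the GATA factor motif, or TTATCT where it lies on the other strand. The regions are chr15:48377347-48377646 for STAR, chr7:59172579-59172878 for CYP11A1 and chr14:113820396-113820695 for CYP17A1.

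STAR: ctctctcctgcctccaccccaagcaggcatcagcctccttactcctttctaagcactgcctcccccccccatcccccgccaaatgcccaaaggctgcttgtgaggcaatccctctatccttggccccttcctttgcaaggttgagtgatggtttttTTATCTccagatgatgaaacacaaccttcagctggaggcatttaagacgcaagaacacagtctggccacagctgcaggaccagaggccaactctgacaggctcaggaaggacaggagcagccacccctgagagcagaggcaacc

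CYP11A1: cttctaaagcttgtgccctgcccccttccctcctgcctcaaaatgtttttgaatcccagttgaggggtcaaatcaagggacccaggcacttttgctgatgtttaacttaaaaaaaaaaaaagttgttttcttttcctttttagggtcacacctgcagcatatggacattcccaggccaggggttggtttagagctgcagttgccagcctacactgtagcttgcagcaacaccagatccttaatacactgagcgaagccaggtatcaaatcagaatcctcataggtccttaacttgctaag

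CYP17A1: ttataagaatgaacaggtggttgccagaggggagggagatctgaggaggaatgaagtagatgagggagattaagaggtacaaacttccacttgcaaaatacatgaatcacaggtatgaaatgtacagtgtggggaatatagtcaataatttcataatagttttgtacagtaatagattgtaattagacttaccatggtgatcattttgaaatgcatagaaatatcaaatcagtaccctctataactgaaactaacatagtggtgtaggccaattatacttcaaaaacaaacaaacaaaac

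The STAR window held the motif once, on the strand opposite to the gene, at positions -94 to -89 from the start. The CYP11A1 and CYP17A1 windows held none. The RefSeq model of CYP17A1 may begin at a distal start, and that of HSD17B1 begins at its start codon, so these 2 windows may not be the proximal promoters. Windows were taken from the outermost annotated start, and CYP11A1 has 3 transcripts, so the same may hold for its window. Among the windows of all 10 genes, FDXR was the only other with a match, at -183 to -178 on its own strand. AGATAA on either strand was found in 9.17% of 19534 such windows of the genome. AAGGTCA, the sequence bound by NR5A1 and NR5A2, was found in 3.78% of the windows and in none of the 10 genes'. A match describes letters only, and the absence of one says only that these letters are not in this window.

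The electron donors and CYB5A showed no called difference in the edgeR test on all 27 libraries. FDX1 (ENSSSCG00000035945, chromosome 9, 38376147 to 38399026, plus strand), the ferredoxin that serves CYP11A1, ran from 1506 in FF sow 3 to 5458 in FF sow 2 (median 3243) and from 1468 in RES sow 4 to 9303 in RES sow 3 (median 3415). The fold change was 0.10 (SE 0.24, edgeR adjusted p = 0.820). FDXR (ENSSSCG00000017227, chromosome 12, 6372224 to 6382769, plus strand), the reductase that loads FDX1, ran from 387.9 to 952.2 in FF (median 594.5) and from 357.6 to 1145 in RES (median 552.2). Its fold change was -0.22 (SE 0.15, adjusted p = 0.332). With limma's voom, which called 3177 of 11384 genes, FDXR was called lower (-0.38, adjusted p = 0.0276). POR (ENSSSCG00000038320, chromosome 3, 10212734 to 10272184, minus strand), which serves CYP17A1, ran from 161.0 to 553.0 in FF (median 446.2) and from 103.9 to 892.8 in RES (median 325.5), with a fold change of -0.06 (SE 0.25, adjusted p = 0.904). The RES range of POR reached beyond the FF range at both ends, and 9 of 14 RES sows lay below the FF median. CYB5A (ENSSSCG00000004875, chromosome 1, 149737584 to 149773222, plus strand), the cytochrome b5 that helps CYP17A1, ran from 4589 to 19565 in FF (median 11820.4) and from 4748 to 22119 in RES (median 12935). Its fold change was 0.15 (SE 0.19, adjusted p = 0.636), with -0.12 among upper and 0.42 among lower quality libraries.

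HSD17B1 (ENSSSCG00000035147, chromosome 12, 20269468 to 20271349, minus strand), the enzyme that makes estradiol, was the only one of the 10 called as higher in RES. It ran from 1033 in FF sow 6 over a median of 2026 to 3156 in FF sow 4, and from 1182 in RES sow 7 over a median of 2992 to 4747 in RES sow 3. In RES, 12 of 14 sows lay above the FF median, and sow 7, the highest RES sow for STAR, CYP11A1 and CYP17A1, was the lowest for HSD17B1. The means were 1925 ± 641.6 (SD, n = 13) and 2945 ± 879.6 (SD, n = 14), a fold change of 0.56 (SE 0.17, edgeR adjusted p = 0.0270). The call was lost without RES sow 3 (0.50, adjusted p = 0.0512) and held in the other 26 fits without 1 sow. Upper quality libraries gave 0.69 (adjusted p = 0.0441) and lower quality libraries 0.43 (adjusted p = 0.499).

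HSD17B4 (ENSSSCG00000028431, chromosome 2, 123313445 to 123401386, plus strand) ran from 2477 to 5317 in FF (median 3951) and from 2718 to 4480 in RES (median 3387). Of 14 RES sows, 10 lay below the FF median. The fold change was -0.26 (SE 0.10, edgeR adjusted p = 0.0801), with -0.25 among upper and -0.27 among lower quality libraries. HSD17B4 was called in 2 of 27 fits without 1 sow. It was also called with upper-quartile factors (edgeR adjusted p = 0.0377) and with limma's voom (adjusted p = 0.0328). HSD17B12 (ENSSSCG00000021739, chromosome 2, 18461487 to 18611761, minus strand) had nearly the same mean in both groups, 997.3 ± 151.0 (SD, n = 13) and 997.5 ± 140.0 (SD, n = 14). Its fold change was -0.04 (SE 0.08, adjusted p = 0.742). Its CV of 15.1% in FF and 14.0% in RES was below the median of all genes tested, 25.3% in both groups. A lncRNA on the other strand (LOC102168147) shares 437 bp of exon with it.

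**Figure D2:**
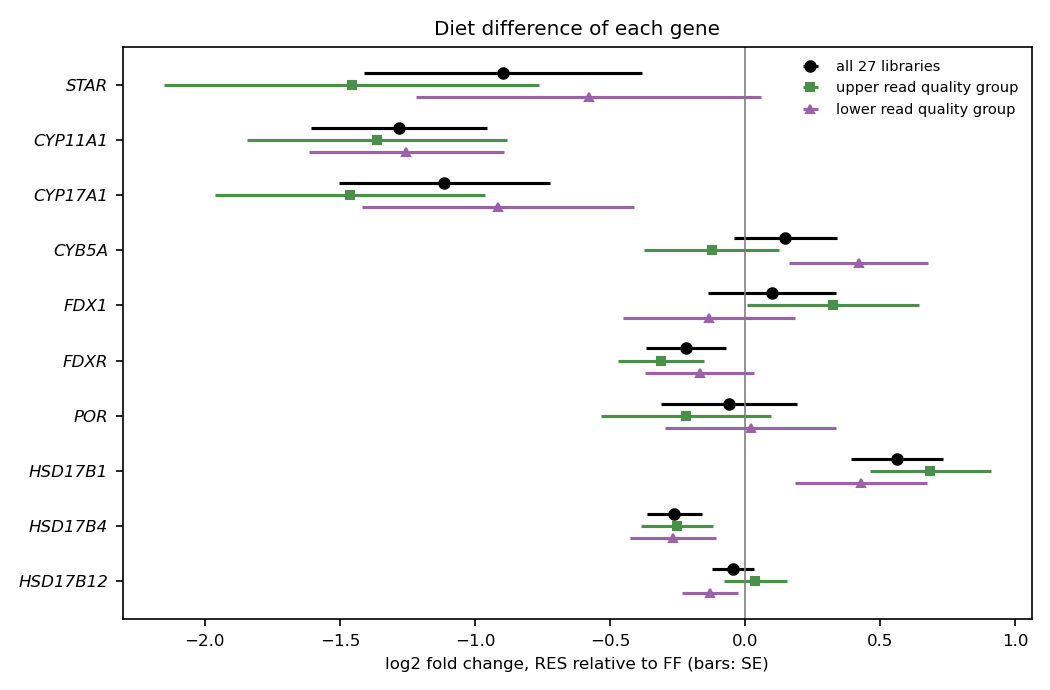
Fold change of each gene (log2, RES relative to FF, bars show SE) in all 27 libraries (black circles) and within the upper (green squares) and lower (purple triangles) read quality groups. STAR, CYP11A1 and CYP17A1 lie left of zero and HSD17B1 right of it in all 3 fits, whereas CYB5A, FDX1, POR and HSD17B12 change sign between the quality groups.

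A test of whether the diet difference itself differed between the quality groups called none of the 11384 genes (edgeR interaction term; 1398 genes had an unadjusted p under 0.05). For the 10 steroidogenic genes its adjusted p ran from 0.567 to 0.984. The lower quality group gave 1 call in all genes, 0.00878%, against 17.8% in the upper.

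Which of the genes were abundant was compared per length, as normalized count per kb of RefSeq exon. CYB5A was the highest in both groups, with 6381 ± 2347 per kb (SD) over the 13 FF sows and 7299 ± 2412 over the 14 RES sows, followed by FDX1 with 5030 ± 1882 and 5606 ± 3217. HSD17B1 came next with 1993 ± 664 in FF and 3048 ± 911 in RES, on a gene model of 966 bp that holds coding sequence only, so its level per kb may be set too high. With coding length used for all 10 genes, STAR (2976 ± 2952 per kb) came before HSD17B1 in FF. At the other end lay CYP11A1 with 143.7 ± 86.6 per kb in FF and 60.5 ± 47.2 in RES, and POR with 119.4 ± 41.8 and 118.6 ± 67.5. On these lengths the electron donor FDX1 was far above the enzyme it serves, and POR was below CYP17A1 (556.5 ± 403.8 in FF, 262.8 ± 253.9 in RES). Counts were made on Ensembl exons but divided by RefSeq lengths. The FDX1 model of 662 bp holds 561 bp of coding sequence, so the level of FDX1 per kb may also be set too high.

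Of 18 pairs of neighbours in the 2 orders (set by geometric means), 9 differed within sows (exact sign-flip test, two-sided, adjusted over the 18). In FF these were FDX1 above HSD17B1 in 13 of 13 sows (adjusted p = 0.00110), HSD17B1 above HSD17B4 in 10 of 13 (adjusted p = 0.0159) and FDXR above CYP11A1 in 12 of 13 (adjusted p = 0.00146). The FF neighbours CYB5A and FDX1, HSD17B4 and STAR, STAR and HSD17B12, HSD17B12 and CYP17A1, CYP17A1 and FDXR, and CYP11A1 and POR did not differ beyond their spread. In RES the middle of the order (HSD17B12, STAR, FDXR and CYP17A1) was not separated, and the other 6 neighbours were. CYP11A1 and POR held the last places in both groups, and in RES CYP11A1 was below POR in 13 of 14 sows (adjusted p = 0.00110). The choice of length bears on these steps. On coding length the FF geometric means were 1882 for HSD17B1 and 1782 for HSD17B4, in place of 1882 and 1160, and 297.9 for CYP11A1 and 179.1 for POR, in place of 122.1 and 110.9. In RES they were 120.6 for CYP11A1 and 164.2 for POR, in place of 49.5 and 101.7. Whether the order differed between the diets was not tested.

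**Figure D3:**
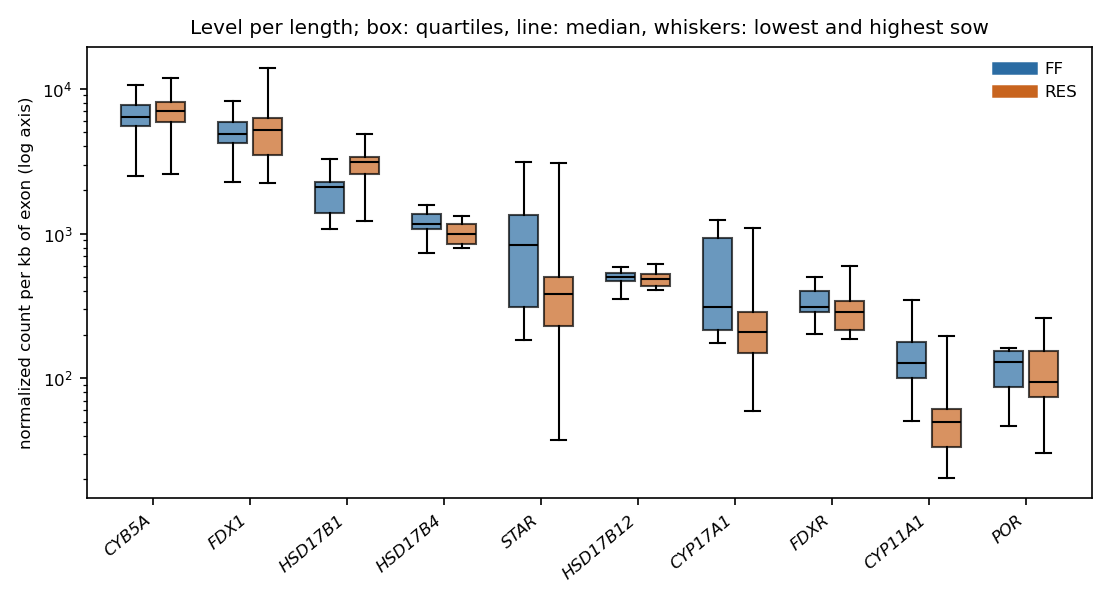
Normalized count per kb of exon (log axis) for each gene, in the FF order, with FF in blue and RES in orange. Boxes span the quartiles, lines mark the median and whiskers reach the lowest and highest sow. The levels fall from 6381 per kb for CYB5A to 119.4 per kb for POR in FF, and STAR and CYP17A1 have the longest whiskers.

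The balance between an enzyme and its helper was compared as the log2 ratio of their counts in each sow, with 0.5 added to each (permutation test, two-sided, 100000 resamples, adjusted over 4 ratios). In FF sows FDX1 over CYP11A1 was 2.73 ± 0.55 (SD, n = 13), and in RES sows 4.10 ± 0.89 (SD, n = 14), higher by 1.37 (adjusted p = 0.00044). CYB5A over CYP17A1 was 3.87 ± 1.02 in FF and 5.19 ± 0.98 in RES, higher by 1.32 (adjusted p = 0.00357), and POR over CYP17A1 was -0.96 ± 0.77 and 0.01 ± 0.72, higher by 0.97 (adjusted p = 0.00357). FDX1, POR and CYB5A were thus more abundant relative to the enzymes they serve in RES. None of these helpers was itself called (edgeR adjusted p = 0.820, 0.904 and 0.636). The ratios therefore mostly restate the fold changes of CYP11A1 (-1.28) and CYP17A1 (-1.11, not called) and are not separate evidence. No ratio with FDXR was computed. CYP17A1 over CYP11A1 differed by 0.21, less than its spread (0.68 ± 0.83 in FF, 0.88 ± 0.36 in RES, adjusted p = 0.407). The first 3 passed the threshold in every fit without 1 sow. Both ratios to CYP17A1 missed it within the lower quality group.

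Within each group, the 45 pairs of genes were correlated across sows on normalized counts (Pearson's r, 100000 permutations, adjusted over the 90 tests, 1e-05 being the smallest p the permutations can give). In FF 11 pairs and in RES 4 pairs passed, all with positive r. The order of these counts turned with the measure: by Spearman's rho 8 passed in FF and 10 in RES, and without the 2 farthest sows 5 and 13. These 2 sows were those farthest from the group median of the pair's first gene. First is meant in the order STAR, CYP11A1, CYP17A1, CYB5A, FDX1, FDXR, POR, HSD17B1, HSD17B4 and HSD17B12. Sows that were extreme only for the other gene stayed in. Without FF sow 14 the FF count was 4, without FF sow 2 it was 6 and without FF sow 6 it was 7. The same sows share a follicle and a library in both measures of a pair. STAR and CYP17A1 had r = 0.92 in FF (permutation p = 1e-05, adjusted p = 0.00045, Spearman's rho 0.81 with permutation p = 0.00121) and 0.98 in RES (permutation p = 3e-05, adjusted p = 0.00054, rho 0.90 with permutation p = 5e-05). Leaving out the 2 sows with the most extreme STAR level gave an r of 0.91 in FF and of 0.88 in RES. In both quality groups of both diets it was at least 0.85.

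Because FF sows lay on both sides of a gap in CYP17A1, r is also given within each side, as a description with no test. Among the 6 FF sows above the gap, r of STAR and CYP17A1 was 0.93, and among the 7 below it r was -0.17. STAR and CYP11A1 had r = 0.96 above and 0.35 below the gap, and CYP11A1 and CYP17A1 had 0.88 and -0.17. Each side spans a narrower range of CYP17A1 than the whole group, which by itself can lower r, so these values do not show what the FF relations rest on.

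STAR and CYP11A1 had r = 0.89 in FF (permutation p = 0.00043, adjusted p = 0.0063, rho 0.73 with permutation p = 0.00605) and 0.94 in RES (permutation p = 1e-05, adjusted p = 0.00045, rho 0.90 with permutation p = 4e-05). Without the 2 farthest sows r was 0.55 in FF, where the relation no longer passed (permutation p = 0.0817), and 0.88 in RES. CYP11A1 and CYP17A1 had r = 0.77 in FF (permutation p = 0.00156, adjusted p = 0.0161, rho 0.58 with permutation p = 0.0394, which did not pass after adjustment at 0.136) and 0.94 in RES (permutation p = 2e-05, adjusted p = 0.00045, rho 0.96 with permutation p = 1e-05). Without the 2 farthest sows they had 0.44 in FF, where the relation no longer passed (permutation p = 0.170), and 0.97 in RES. The FF relation passed in 11 of 13 fits without 1 sow, with a lowest r of 0.66 without FF sow 2. RES sow 7 stands far above the other RES sows for all 3 genes. Without it r in RES was 0.94 for STAR and CYP11A1, 0.83 for STAR and CYP17A1 and 0.82 for CYP11A1 and CYP17A1, and all 3 still passed.

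**Figure D4:**
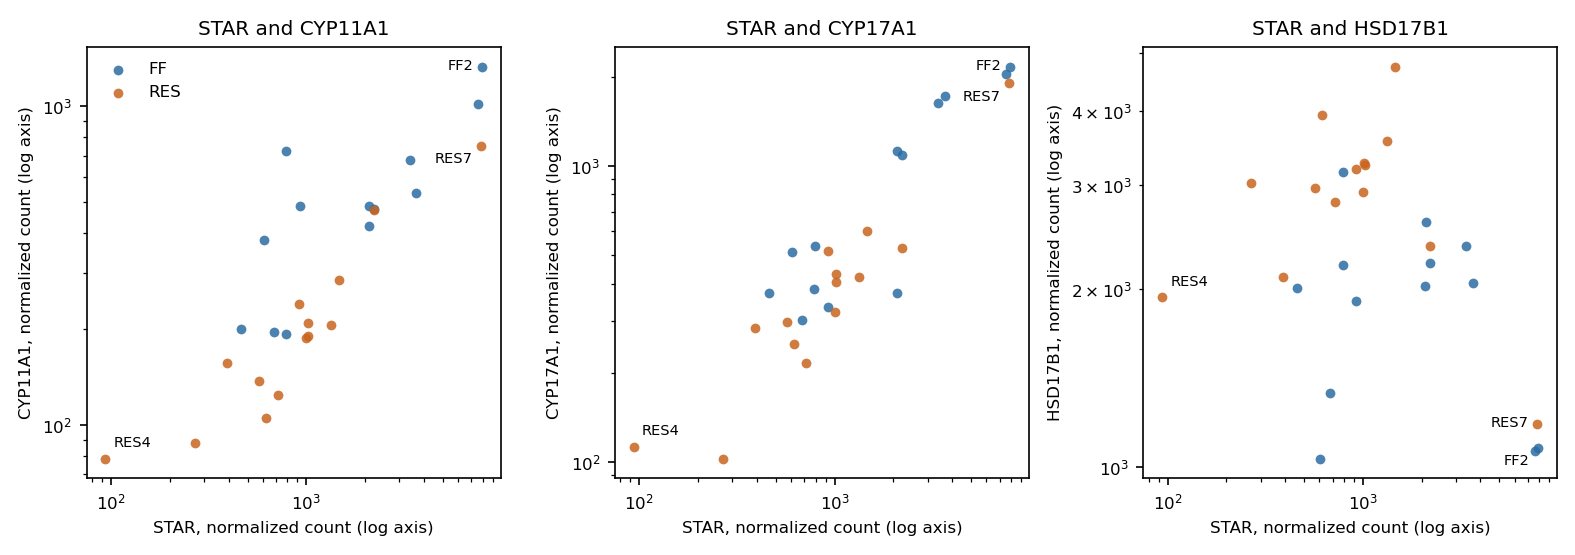
STAR plotted against CYP11A1, CYP17A1 and HSD17B1, 1 point per sow, normalized counts on log axes, FF in blue and RES in orange. FF sow 2 and RES sow 7 lie at the top and RES sow 4 at the bottom of the STAR range, with CYP11A1 and CYP17A1 rising along it, and the 3 sows highest in STAR are among the lowest in HSD17B1.

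Of the 11 FF pairs, 5 joined FDX1 or POR to STAR, CYP11A1 or CYP17A1, with r from 0.70 for STAR and POR to 0.77 for CYP17A1 and POR. In RES STAR and POR had r = 0.41 but rho = 0.86 (adjusted p = 0.0021, permutation test). Among the donors themselves, FDX1 and POR had r = 0.82 in FF (permutation p = 0.00049, adjusted p = 0.0063, rho 0.88 with permutation p = 0.00017) and 0.83 without the 2 farthest sows, against r = 0.55 in RES (adjusted p = 0.143). FDXR and POR had r = 0.85 in RES (permutation p = 2e-05, adjusted p = 0.00045, rho 0.78 with permutation p = 0.00142), 0.74 without the 2 farthest sows, and r = 0.59 in FF (adjusted p = 0.143). CYP11A1 and its donor FDX1 had r = 0.77 in FF (adjusted p = 0.0161) and 0.26 in RES, where rho was 0.53 and r without the 2 farthest sows 0.56. All 6 negative values in FF involved HSD17B1, and none passed. Its r to STAR was -0.45 in FF and -0.48 in RES. These 2 values turned with the measure and the sows: Spearman's rho was 0.05 in FF and 0.17 in RES, r without the 2 farthest sows was 0.26 in FF and 0.75 in RES (permutation p = 0.00477), and the RES value without sow 7 was 0.31.

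Whether a pair's r differed between FF and RES was tested with diet labels permuted over values standardized within group. Of 45 pairs, 3 had an unadjusted permutation p under 0.05 and none passed after adjustment (smallest adjusted p = 0.654). These were HSD17B1 and HSD17B12, with r higher by 0.80 in RES (permutation p = 0.0412), STAR and FDX1, with a difference of -0.56 (permutation p = 0.0414), and CYP11A1 and FDX1, with -0.51 (permutation p = 0.0456). The 11 pairs in FF and 4 in RES are therefore not shown to be a difference between the diets.

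**Figure D5:**
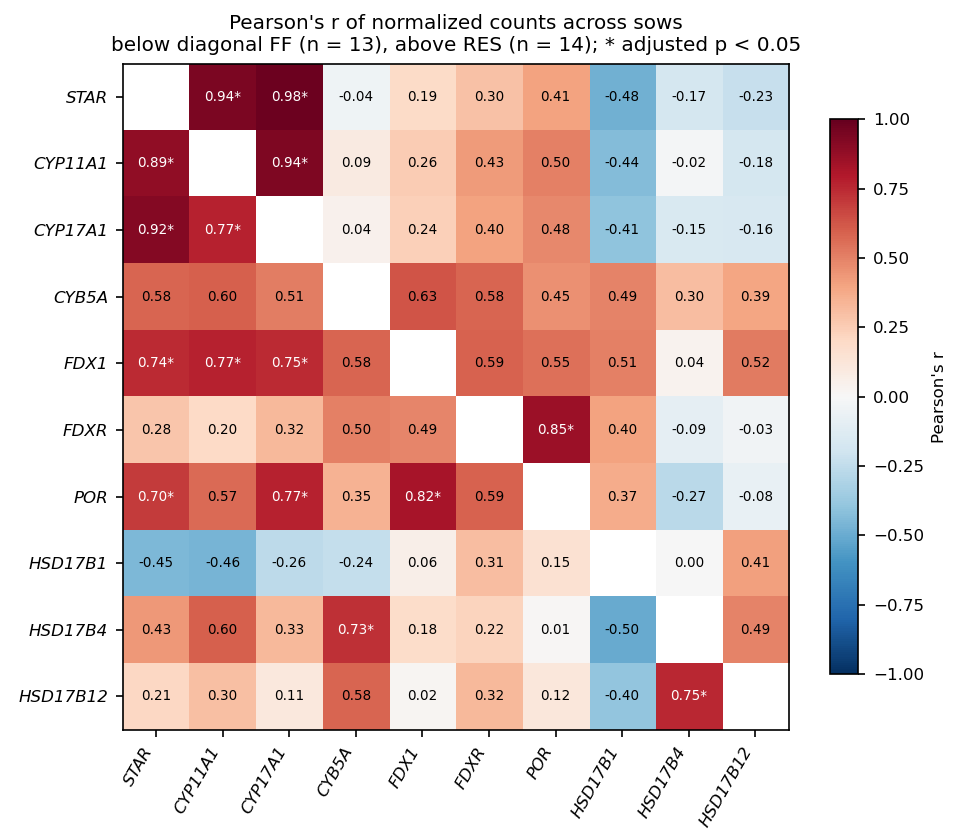
Pearson's r of normalized counts for each pair of genes, with FF (13 sows) below and RES (14 sows) above the diagonal. Red is positive and blue negative, and stars mark an adjusted p under 0.05. The block of STAR, CYP11A1 and CYP17A1 is dark red in both groups, from 0.77 to 0.98, while every blue cell among the FF values belongs to HSD17B1.

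The highest and lowest sows recurred. FF sow 2 held the highest FF value of 6 genes, and RES sow 3 the highest RES value of 5 (CYB5A, FDX1, FDXR, POR and HSD17B1). RES sow 4 held the lowest RES value of 8 genes, all but CYP17A1 and HSD17B1.

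Genes whose pattern was most like that of a member were ranked by r of log2 levels over the 27 libraries after removal of group means, among 9512 genes. These r values are descriptions, and the libraries are shared by all genes. Most like STAR were CYP17A1 (0.91), ALAS1 (0.89), the first enzyme of heme synthesis, ELK4 (0.87), PTPN9 (0.87) and CEBPB (0.87). Most like CYP11A1 were STAR (0.87), FAM222A (0.86), COBLL1 (0.86), ABLIM1 (0.85) and PTPN9 (0.84). Most like CYP17A1 were STAR (0.91), ACSF2 (0.84), ABLIM1 (0.84), RDH12 (0.82) and LIPG (0.81). Most like HSD17B1 were LMNB2 (0.87), RPP21 (0.84), CDCA3 (0.84), TMED3 (0.84) and SFTPC (0.84). By Spearman's rho, all 5 genes stayed in the list of CYP17A1, and 2 of 5 in each of the others. Of the other members, POR ranked 33rd for STAR and 26th for CYP17A1, and HSD17B1 ranked 8239 of 9512 for CYP11A1, with r = -0.36.

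The wider pathway was counted over 5 lists, of which 13 genes were called, beside 14.1% of all genes. This count was 6 without FF sow 2, 8 without FF sow 6, 7 without FF sow 8, 20 without RES sow 7 and 27 with voom. Among 21 other steroid enzymes tested, 1 was called higher and 3 lower in RES (median fold change -0.21, against -0.02 over all genes). HSD11B1, which converts cortisone to cortisol, fell from 97.7 ± 14.8 (SD, n = 13) to 68.1 ± 10.3 (SD, n = 14), a fold change of -0.56 (SE 0.10, edgeR adjusted p = 0.00183). PAPSS2, which makes the sulfate donor for steroid sulfation, fell from 2117 ± 474 to 1382 ± 432 (-0.65, adjusted p = 0.00405). AKR1B1, an aldo-keto reductase, rose by 0.34 on the log2 scale (adjusted p = 0.0279). The genes CYP19A1 and HSD3B1, the aromatase and the enzyme after CYP11A1, were not analysed here.

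Among 19 genes of cholesterol delivery, 3 were called higher and 1 lower (median 0.05). DBI, which binds acyl-CoA and TSPO, rose from 1571 ± 375 to 2449 ± 654 (0.59, adjusted p = 0.00383). TSPO, its partner in the outer mitochondrial membrane, rose from 19.0 ± 10.3 to 33.3 ± 12.7 (0.76, adjusted p = 0.0358), and VDAC1, the channel of the same membrane, from 1124 ± 224 to 1409 ± 253 (0.28, adjusted p = 0.0481). STARD4, a carrier of cholesterol in the cytosol, fell from 858.1 ± 420.6 to 554.5 ± 174.9 (-0.66, adjusted p = 0.0456). The calls of VDAC1 and STARD4 each held in only 9 of 27 fits without 1 sow, that of TSPO in 18 and that of DBI in 27. STARD3, a late endosome relative of STAR, was 15.9 ± 6.40 in FF and 19.0 ± 6.81 in RES (adjusted p = 0.516).

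Among 21 electron transfer partners, none was called higher and 2 lower (median 0.01). PGRMC1, a heme protein that binds P450 enzymes, fell by 0.20 on the log2 scale (adjusted p = 0.0341) and HSCB, a co-chaperone of iron-sulfur cluster assembly, fell by 0.43 (adjusted p = 0.0246). Their calls held in 19 and 26 of 27 fits without 1 sow. Among 23 regulators of steroidogenic genes, 1 was called higher and 2 lower (median 0.02). CITED2, a transcriptional co-regulator, fell from 581.2 ± 388.1 to 240.4 ± 143.4 (-1.30, SE 0.31, adjusted p = 0.00640) and the orphan nuclear receptor NR4A2 from 23.3 ± 6.40 to 14.4 ± 6.44 (-0.74, adjusted p = 0.0184). The adenylate cyclase ADCY3 rose from 143.1 ± 24.8 to 192.8 ± 39.7 (0.38, adjusted p = 0.0108). The nuclear receptors that activate this pathway did not pass the test: NR5A1 was 73.1 ± 28.7 in FF and 72.0 ± 23.5 in RES (adjusted p = 0.844), and NR5A2 was 6019 ± 1710 and 6281 ± 2114 (adjusted p = 0.955). Of 20 partners of HSD17B4 and HSD17B12 in fatty acid metabolism, none was called. In the same edgeR test 2 had an unadjusted p under 0.05, beside 3420 of all 11384 genes.

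Because CYP17A1 and CYP11A1 are abundant in the theca, 14 theca markers without them were summed in each library. The sum ran from 14981 to 44672 (median 25938) in FF and from 12629 to 40164 (median 23607) in RES, a log2 difference of -0.22 (permutation p = 0.278, adjusted p = 0.370 over 7 marker lists). The collagen genes COL3A1 (mean 10436 in FF and 8008 in RES) and COL1A2 (8454 and 8019) made up most of this sum. It therefore mostly follows these and hardly follows INSL3 (896.5 and 626.1). None of the 13 tested theca markers was called, and 11 of the 13 had a negative fold change. An unadjusted edgeR p under 0.05 was found for 2 of them, beside 3420 of all 11384 genes. INSL3, the hormone that defines theca interna cells, had a fold change of -0.56 (adjusted p = 0.114). In RES the theca sum had r = 0.53 with STAR, 0.51 with CYP11A1 and 0.54 with CYP17A1 (adjusted permutation p from 0.101 to 0.115 over 8 relations), and r from -0.08 to -0.01 without the 2 farthest sows. In FF r ran from -0.16 to 0.19 for the same 3 genes. The largest of the 8 relations was that of HSD17B1 in RES, in the opposite direction (r = -0.63, rho -0.62, adjusted permutation p = 0.101), with -0.21 among upper and -0.96 among lower quality libraries and -0.36 without the 2 farthest sows. In FF HSD17B1 had r = 0.36 with the theca sum.

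Some of the markers of vessels were lower in RES. Of 6 endothelial markers 3 were called lower in RES, beside 5.85% of all genes, and their sum, 1091 to 2315 in FF and 754.5 to 2289 in RES, differed by -0.47 (permutation p = 0.00304, adjusted p = 0.0102). Of 5 smooth muscle and pericyte markers 2 were called lower (RGS5 in 27 and PDGFRB in only 12 of 27 fits without 1 sow), and the sum, 1929 to 4910 in FF and 921.8 to 4334 in RES, differed by -0.75 (permutation p = 0.00107, adjusted p = 0.00749). RGS5 (mean 2282 in FF and 1367 in RES) made up most of this sum. MYH11 (fold change -0.82) was not called, and TAGLN (-0.02) and DES (-0.09) hardly moved. HBB, the hemoglobin of red cells, was called lower, and the erythroid sum differed by -1.55 (permutation p = 0.00438, adjusted p = 0.0102). Immune markers summed to at most 189.7 in any library and none was called. Of 4 oocyte markers, the egg coat genes ZP3 and ZP2 had a mean under 1 and BMP15 of 1.64 in FF and 0.667 in RES, whereas GDF9 had a mean of 229.4 in FF and 209.9 in RES. Whether cells of the theca or of vessels had a part in the levels of STAR, CYP11A1 and CYP17A1 was not tested.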

How the data were processed

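Counts of read pairs per gene were deposited for 27 libraries. According to the labels, file headers and methods, the authors cleaned reads with SOAPnuke, aligned them to Sscrofa11.1 with HISAT2 2.2.1, removed PCR copies by molecular identifier with UMI-tools 1.1.4 (SAMtools 1.16.1) and counted pairs on exons of Ensembl release 110 with featureCounts 1.6.2, without a strand option although libraries were stranded. The deposited counts were not normalized, and pairs on more than one gene were dropped by default. Symbols came from a table that names 15623 of 35670 identifiers. Genes with a mean count of at least 5 were kept and 38 small RNAs left out.

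Diet was tested with edgeR 4.0.16 (R 4.3.3, TMM factors, quasi-likelihood test, Benjamini-Hochberg adjustment over 11384 genes, calls at adjusted p below 0.05). For normalized counts, DESeq2 1.42.0 size factors were taken over 17467 identifiers. On simulated counts with 200 genes changed 2-fold among 11384, the RES against FF test recovered 85% and 1.16% of its calls were false. Each library is 1 sow, so p-values measure the spread between sows, and no 2 libraries agreed within sampling noise. Permutation tests were two-sided. Numbers shared by FF and RES sows were not taken as pairs.

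The genes and lists were chosen with earlier results of these data known. Named were all 10 members, every called gene of the other lists (at most 6 per list; 1 is not reported here), NR5A1, NR5A2 and STARD3, the 5 genes most like STAR, CYP11A1, CYP17A1 and other called members, and up to 5 correlated pairs per group. Other pairs and sows singled out were chosen after their values were seen. Windows and positions are from RefSeq on Sscrofa11.1. Columns of read quality came from the study's read statistics and served only to split libraries. Protein sequences were not used here. Alternatives were DESeq2, limma 3.58.1 voom, other factors and filters, covariates, a replicate block, the quality groups and leaving out sows.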

Additional observations from a re-analysis of the deposited data

How the results depend on the processing

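Of the 10 members, 2 were called in the reported test. The count was 4 with upper-quartile factors, 5 with voom, 1 in the upper and 0 in the lower read quality group (also 0 there without FF sow 10, left out because the labels and the study's RNA quality list do not match on which row is this sow's, which also touches the RIN covariate), 1 without RES sows 3 and 5 (the libraries of lowest read quality, an alternative chosen after seeing the data) and 1 to 4 when 1 sow was left out, lowest without RES sow 3 and highest without RES sow 7. With the replicate block it was 1, and all genes called fell from 1610 to 1084. Sows with the same number correlated over 0.1 in 2 of 13 pairs (median 0.009), and 1 FF sow was closest to its own number, so the numbers do not pair sows. Voom called 3177 of all genes.

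CYP11A1 stayed lower in all 14 settings and all 27 fits without 1 sow, and lost its call in 3 settings, all within a quality group. HSD17B1 lost its call with the replicate block (0.58, adjusted p = 0.0580), in the lower quality group, also without FF sow 10, and without RES sows 3 and 5 (0.48). CYP17A1 was called in 5 of 14 settings and 7 of 27 fits without 1 sow. The sign turned only for small fold changes: CYB5A was -0.12 in the upper group. FDX1 was -0.0166 with the block, -0.0691 with voom, -0.133 in the lower group, -0.129 there without FF sow 10, -0.0141 without RES sows 3 and 5, and -0.0608 (without RES sow 3) to 0.175 without 1 sow. POR was 0.0203 in the lower group, 0.0648 there without FF sow 10, and -0.183 to 0.0183 (without RES sow 4) without 1 sow. HSD17B12 was 0.0016 with all identifiers and 0.0375 in the upper group. The causes were not tested.

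The 11 FF pairs past the threshold became 5 without the 2 sows farthest by the pair's first gene. They became 4 to 12 without 1 sow (6 without FF sow 2, 7 without FF sow 6, 4 without FF sow 14). The 4 RES pairs became 9 on the log2 scale, 10 by Spearman's rho, 13 without the 2 farthest sows and 4 to 6 without 1 sow. The ratio CYB5A over CYP17A1 differed by 1.51 and POR over CYP17A1 by 0.88 in the lower group, both no longer past the threshold (exact permutation adjusted p = 0.0711 and 0.118), and CYP17A1 over CYP11A1 by -0.0012 in the upper group. The other pathway lists gave 13 calls, 27 with voom and 6 to 20 without 1 sow (6 without FF sow 2, 8 without FF sow 6, 7 without FF sow 8, 20 without RES sow 7). In the order of levels, 9 neighbour pairs differed with exon or longest transcript length and 13 with coding length, where CYB5A was at 29131 per kb in FF. The marker lists gave 6, 10 with voom and 5 to 11 without 1 sow (11 without RES sow 7). The fold change of STAR had an SE of 0.52 and that of TSPO, with means of 19.0 and 33.3, an SE of 0.24. How the SE depended on depth or count level was not tested.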
